A study of Homo sapiens with 6 samples.

Results

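The EGF receptor family and its ligands were followed in UMUC3, an established cell line from a human bladder cancer, as 10 genes chosen by name: the receptors EGFR, ERBB2, ERBB3 and ERBB4 and the ligands AREG, EREG, HBEGF, TGFA, BTC and NRG1. All 10 were found by symbol among the 60605 genes of the count table, and 7 of them had enough counts to be tested. Both groups of 3 RNA sequencing libraries came from UMUC3 cells infected with virus of a PLVX-IRES-Zsgreen vector, which also encodes a green fluorescent protein. In the TIM-1 group the vector carried TIM-1, a cell surface receptor encoded by HAVCR1, and in the empty vector group it carried no insert. The sources used here do not give the promoter of the insert, the time after infection or whether cells were sorted or grown from 1 clone. Libraries are numbered 1 to 3 in both groups. What a number marks, and whether the cultures were separate, the labels leave unsaid, so every p-value rests on a spread between libraries that may be technical. Values in a row of 3 are in the order of replicates 1, 2 and 3.

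The 4 receptors are single-pass membrane tyrosine kinases that work as dimers. EGFR binds EGF, TGFA, AREG, EREG, HBEGF and BTC. ERBB3 and ERBB4 bind neuregulins such as NRG1, ERBB2 has no known ligand of its own and is the preferred dimer partner, and ERBB3 has a weak kinase and signals through its partner. Ligands are made as membrane-bound precursors that ADAM proteases cut loose, and bound receptors signal through RAS and ERK and through PI3 kinase. In urothelium, EGFR family receptors and their ligands are known for driving regrowth after injury, and ERBB2, EGFR and ERBB3 are altered in bladder cancer.

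Total counts ran from 14312387 to 18605914 per library. HAVCR1 checked the labels: the TIM-1 libraries held 7069, 9824 and 11479 of its counts, the controls 4, 0 and 0. Of 16 urothelial markers 6 were abundant enough to be tested, KRT8 and KRT18 among them, while UPK3A, KRT20 and EPCAM had 0 counts in all 6 libraries. Both replicate 1 libraries stood apart: in a fit that kept the group as a term, 11.6% of the 14479 tested genes were higher and 12% lower there than in replicates 2 and 3 (edgeR, adjusted p under 0.05). Each result for the receptors and ligands is therefore given without pairing and with same-numbered libraries taken as pairs, and the difference of replicate 1 is given on its own.

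The ligand genes EREG, AREG, EPGN and BTC lie close together on chromosome 4, and only EREG was expressed well above the detection limit. EREG encodes epiregulin (ENSG00000124882, chr4:74365143-74388751, plus strand, GRCh38) and AREG encodes amphiregulin (ENSG00000109321, chr4:74445134-74455009, plus strand). AREG had 1 count in empty vector replicate 2, 2 in replicate 3 and 0 in the other 4 libraries, where a count of 0 allows up to 0.207 CPM (counts scaled to a common library size). BTC, encoding betacellulin (ENSG00000174808, chr4:74744759-74794686, minus strand), had 1 count in empty vector replicate 1 and 0 elsewhere. EPGN, encoding epigen (chr4:74308473-74315307), had 14 counts in all. EREG had 5039 counts over the 6 libraries, between 26.4 and 70.2 CPM. The gene MTHFD2L, on the far side of EPGN, stood between 9.04 and 11.1 CPM, and PARM1, beyond BTC, had 8 counts.

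The promoters of the neighbours EREG and AREG are shown because they differ in expression so widely, that of HBEGF because it moved with EREG across replicates, and that of TGFA because it was the member with the largest TIM-1 difference. Each window runs from 250 bases before to 50 after the RefSeq start (GRCh38.p14), 5′ to 3′ on the gene's strand. The windows are EREG chr4:74364895-74365194, AREG chr4:74444886-74445185, HBEGF chr5:140346554-140346853 on the minus strand and TGFA chr2:70553777-70554076 on the minus strand, the more upstream of 2 TGFA starts. Capitals mark matches on either strand to any of 5 motifs. These were the TATA box, searched as TATAAA, the CCAAT box, searched under that name, and the SP1 box, searched as GGGCGG. The cAMP response element was searched as TGACGTCA and the AP-1 site as TGANTCA.
EREG: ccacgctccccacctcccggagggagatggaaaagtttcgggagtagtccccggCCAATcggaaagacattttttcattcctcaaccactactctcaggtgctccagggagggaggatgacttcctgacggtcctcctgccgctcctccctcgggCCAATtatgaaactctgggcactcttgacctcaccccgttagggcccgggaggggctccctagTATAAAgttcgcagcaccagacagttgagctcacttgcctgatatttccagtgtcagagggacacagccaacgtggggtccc
AREG: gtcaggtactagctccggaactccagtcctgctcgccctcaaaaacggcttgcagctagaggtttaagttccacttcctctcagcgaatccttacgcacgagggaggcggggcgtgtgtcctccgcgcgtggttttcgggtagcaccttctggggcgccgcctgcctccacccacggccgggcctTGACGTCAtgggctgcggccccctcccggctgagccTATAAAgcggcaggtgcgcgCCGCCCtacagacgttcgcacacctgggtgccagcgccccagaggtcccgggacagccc
HBEGF: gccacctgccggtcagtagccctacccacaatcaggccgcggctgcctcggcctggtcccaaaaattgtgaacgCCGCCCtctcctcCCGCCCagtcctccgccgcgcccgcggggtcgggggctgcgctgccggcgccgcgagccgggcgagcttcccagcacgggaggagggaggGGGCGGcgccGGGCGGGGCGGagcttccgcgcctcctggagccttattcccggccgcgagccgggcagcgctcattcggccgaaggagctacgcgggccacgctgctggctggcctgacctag
TGFA: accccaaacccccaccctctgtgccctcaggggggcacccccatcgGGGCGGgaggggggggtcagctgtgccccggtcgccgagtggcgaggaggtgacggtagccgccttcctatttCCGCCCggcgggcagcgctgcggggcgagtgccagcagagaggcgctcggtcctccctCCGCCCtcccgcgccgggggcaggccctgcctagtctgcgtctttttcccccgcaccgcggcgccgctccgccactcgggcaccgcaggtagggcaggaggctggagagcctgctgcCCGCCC

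EREG and AREG both held TATAAA, starting 32 and 29 bases before the start. A TATAAA is present in 11.5% of all 35114 promoter windows of this length. EREG also held 2 CCAAT, 196 and 95 bases before the start, which 34.6% of windows hold. AREG held TGACGTCA 65 bases before the start, a motif of 1.85% of windows, and 1 GGGCGG. HBEGF held 5 GGGCGG, a pair of which share 1 base, and TGFA held 4, against 45.0% of windows with any. Neither HBEGF nor TGFA held TATAAA, and TGANTCA was in none of the 4 windows, against 7.71% of all windows. GC content was 57.7% for EREG, 66.3% for AREG, 75.0% for HBEGF and 75.3% for TGFA, and the median window had 58.7%. A match is a description of these letters only.

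Per length EGFR was the most abundant receptor in every library, followed by ERBB2, and no receptor passed the TIM-1 test in either fit. EGFR (ENSG00000146648, chr7:55019021-55211628, plus strand) stood at 165, 134 and 124 CPM with TIM-1, against 165, 124 and 113 CPM with the empty vector. The groups overlapped, and the highest value in each was that of replicate 1. ERBB2 (ENSG00000141736, chr17:39687914-39730426, plus strand) stood at 56.8, 50.2 and 48.8 CPM with TIM-1, against 54.9, 53.7 and 56.8 CPM with the empty vector. It was the steadiest of the tested members, with a range of 0.22 on the log2 CPM scale. ERBB3 (ENSG00000065361, chr12:56076799-56103505, plus strand) was low, at 5.11, 4.95 and 5.34 CPM with TIM-1, against 5.70, 3.90 and 3.44 CPM with the empty vector. In replicates 2 and 3 ERBB3 was higher with TIM-1, and in replicate 1 it was lower. ERBB4 (ENSG00000178568, chr2:211375717-212538841, minus strand) had 2 counts in TIM-1 replicate 1, 1 in empty vector replicate 2 and 0 in the other 4 libraries.

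**Figure D1:**
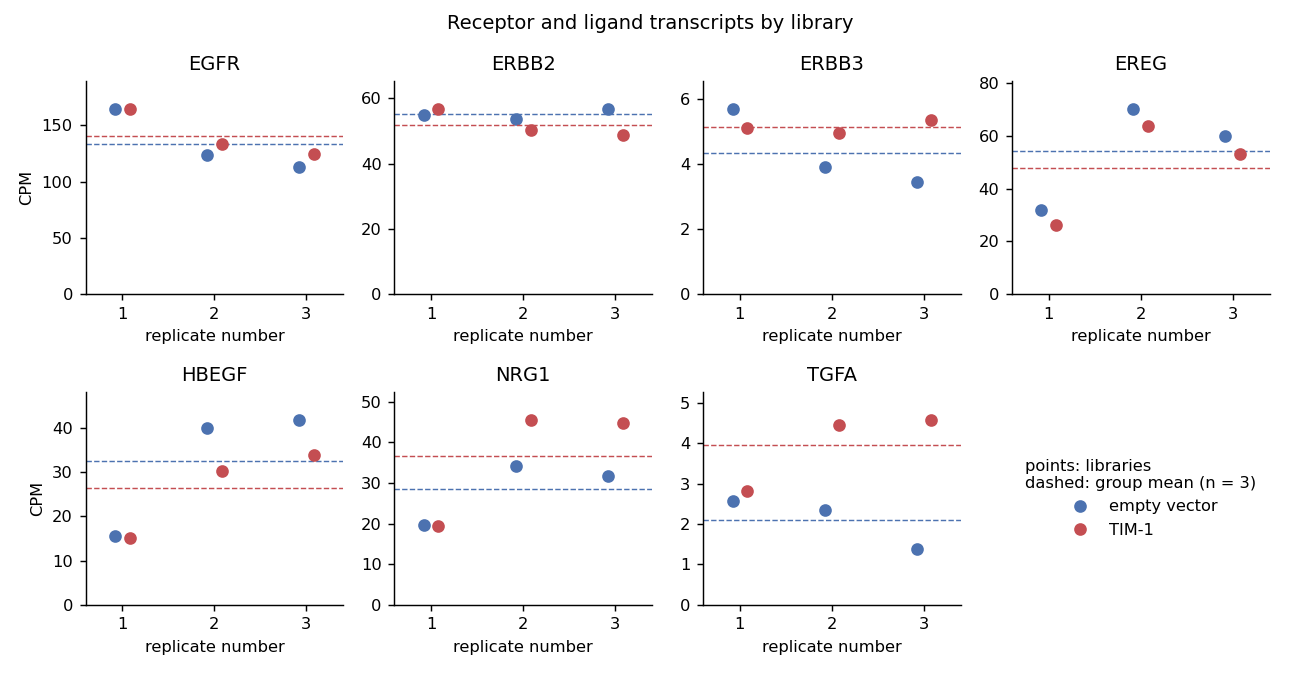
Level in CPM of the 3 tested receptors and 4 tested ligands in each library (points), by replicate number, with group means (dashed lines, n = 3). EREG, HBEGF and NRG1 were lowest in replicate 1 of both groups, EGFR was highest there, and the TGFA points of the groups do not overlap.

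The unpaired log2 fold change, TIM-1 minus empty vector, was 0.07 for EGFR (95% interval -0.28 to 0.42, edgeR adjusted p = 0.966), -0.09 for ERBB2 (-0.30 to 0.13, 0.931) and 0.24 for ERBB3 (-0.27 to 0.75, 0.921). With pairs the intervals were narrower, -0.05 to 0.21 for EGFR, -0.25 to 0.07 for ERBB2 and -0.14 to 0.67 for ERBB3, with edgeR adjusted p of 0.548, 0.591 and 0.520. The sign of the EGFR value depended on the library set: it was -0.05 without TIM-1 replicate 1 and -0.04 without empty vector replicate 3. EGFR shares 186 exon bases with EGFR-AS1 on the opposite strand, and ERBB2 shares 571 with MIEN1 and 194 with PGAP3, also on the opposite strand. ERBB3 shares 31 with AC034102.2 on its own strand. Since no source used here gives the strand setting of the counting, reads from the opposite-strand stretches may be split or lost. Those from the ERBB3 stretch may be so under any strand setting.

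Compared per length, in CPM per kilobase of annotated exon, EGFR was the highest of the 10 genes on average and was joined by 2 ligands. Over all 6 libraries EGFR stood at 10.97 ± 1.77 CPM per kilobase (SD, n = 6, both groups), HBEGF at 9.76 ± 3.88 and EREG at 8.91 ± 3.11. These 3 overlapped, and the replicate 1 libraries of HBEGF and EREG also reached down to the range of ERBB2, at 5.19 ± 0.32. NRG1 followed at 2.88 ± 1.02, its highest library below the lowest of ERBB2 and its lowest above the highest of TGFA. TGFA at 0.61 ± 0.25 and ERBB3 at 0.52 ± 0.10 overlapped. Among the tested genes with an annotated length, the mean of EGFR lay above 72.3%, that of EREG above 67.4%, that of NRG1 above 39.5% and that of ERBB3 above 11.8%. Exon lengths count every annotated isoform, so a gene with long unused exons is understated.

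Among the ligands TGFA was higher with TIM-1, with no overlap between the groups, and NRG1 was higher in 2 of 3 pairs. Neither passed in the unpaired fit of all 6 libraries, and both passed in the paired fit. TGFA encodes transforming growth factor alpha, an EGFR ligand (ENSG00000163235, chr2:70447280-70554193, minus strand). Its counts were 41, 72 and 85 with TIM-1, against 41, 38 and 23 with the empty vector. In CPM this was 2.83, 4.46 and 4.59 against 2.57, 2.35 and 1.39, so the difference was small in replicate 1 and widest in replicate 3. The means were 3.96 ± 0.98 and 2.10 ± 0.63 CPM (SD, n = 3 each). Of all tested genes 6.6% were likewise higher with TIM-1 without overlap.

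The log2 fold change of TGFA was 0.92 in both fits, with an edgeR adjusted p of 0.743 without pairs (95% interval 0.24 to 1.60) and 0.0277 with pairs (0.39 to 1.45). By pair the log2 ratio was 0.14, 0.92 and 1.73 in replicates 1, 2 and 3. The paired call was lost when the replicate 2 pair was left out (edgeR adjusted p = 0.20) and without the replicate 3 pair (0.431, log2 fold change 0.55). It was lost too with a block separating just replicate 1 (0.0594) and by DESeq2 with the block (0.407), and kept without the replicate 1 pair (0.00577, log2 fold change 1.29).

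NRG1 encodes neuregulin 1, a ligand of ERBB3 and ERBB4 (ENSG00000157168, chr8:31639386-32767959, plus strand). It stood at 19.5, 45.6 and 44.9 CPM with TIM-1, against 19.7, 34.1 and 31.7 CPM with the empty vector. The replicate 1 libraries were alike and low, and in replicates 2 and 3 both TIM-1 values lay above both empty vector values. The log2 fold change was 0.36 without pairs (95% interval -0.47 to 1.20, edgeR adjusted p = 0.926) and 0.33 with pairs (0.13 to 0.52, 0.0364). By pair the log2 ratio was -0.02, 0.42 and 0.50. The paired call was lost when the replicate 2 pair was left out (edgeR adjusted p = 0.454), without the replicate 3 pair (0.317), with a block separating just replicate 1 (0.0705) and by DESeq2 with the block (0.415), and kept without the replicate 1 pair (0.00259). Without both replicate 1 libraries and with no block, NRG1 (0.45, edgeR adjusted p = 0.0318) and TGFA (1.27, 0.0404) both passed.

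HBEGF and EREG lay slightly lower with TIM-1 in every one of the 3 pairs and did not pass in either fit. HBEGF encodes heparin-binding EGF-like growth factor, a ligand of EGFR and ERBB4 (ENSG00000113070, chr5:140332843-140346631, minus strand). It stood at 15.1, 30.3 and 33.8 CPM with TIM-1, against 15.6, 40.0 and 41.9 CPM with the empty vector. In replicates 2 and 3 the empty vector libraries were higher, and in replicate 1 the libraries were nearly equal. EREG stood at 26.4, 63.5 and 53.3 CPM with TIM-1, against 32.1, 70.2 and 60.0 CPM with the empty vector, with overlap. The paired log2 fold change was -0.27 for HBEGF (95% interval -0.47 to -0.08, edgeR adjusted p = 0.0921) and -0.19 for EREG (-0.35 to -0.03, 0.155). Of all tested genes 19.1% were lower with TIM-1 in all 3 pairs. HBEGF passed only without the replicate 1 pair (log2 fold change -0.36, edgeR adjusted p = 0.0229). The unpaired values were -0.30 and -0.18, with edgeR adjusted p of 0.950 and 0.970, and that of EREG changed sign without TIM-1 replicate 1 (0.11) and without empty vector replicate 2 (0.05). The HBEGF value was -0.02 without TIM-1 replicate 1 and -0.63 without empty vector replicate 1, and that of NRG1 was 0.66 and 0.15 without the same libraries.

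In count, 0 of the 10 members passed in the unpaired edgeR test, against 0.0138% of all tested genes higher and 0% lower. TGFA alone had an unadjusted p under 0.05, as 5.49% of all tested genes did, and DESeq2 without pairing also called 0. With pairs 2 members were higher and 0 lower, against 3.22% and 1.79% of all tested genes. The block separating just replicate 1 called 0 members, against 2.4% higher and 1.12% lower, and the fit without both replicate 1 libraries called 2 higher, against 1.2% and 0.563%. The median log2 fold change of the 7 tested members was 0.07 without pairs and 0.08 with pairs, beside a median of 0.00 over all tested genes in both fits. Whether the TIM-1 difference itself varied between replicate 1 and the others was tested after the values were seen. No member passed and none of the 14479 genes did (edgeR adjusted p = 0.877 for TGFA and NRG1), with 779 genes (5.38%) at an unadjusted p under 0.05. Of the 7 tested members 2 had such a p. The difference of differences on the log2 scale was -1.14 for TGFA (95% interval -2.24 to -0.03) and -0.47 for NRG1 (-0.88 to -0.06).

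**Figure D2:**
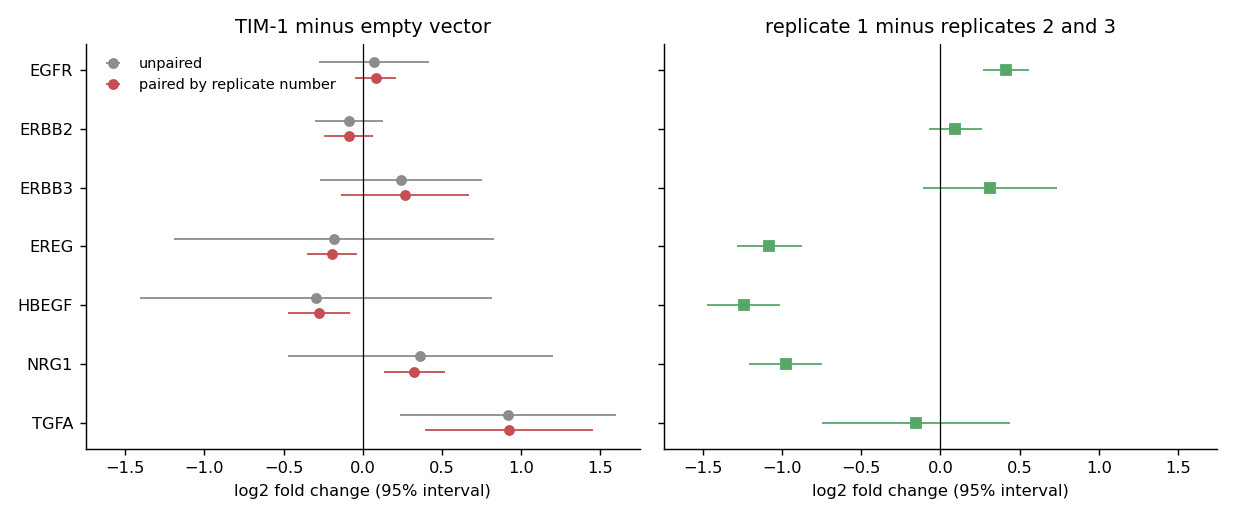
Log2 fold change with its 95% interval for the 7 tested members, TIM-1 minus empty vector without pairs (grey) and with pairs (red) on the left, and replicate 1 minus replicates 2 and 3 on the right. With pairs the intervals of TGFA and NRG1 lie above 0 and those of HBEGF and EREG below 0, though only TGFA and NRG1 passed after adjustment. For replicate 1 the intervals of EREG, HBEGF and NRG1 lie below -0.7.

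For HBEGF, EREG and NRG1 the log2 difference between replicate 1 and the others was larger in size than that between the groups. In replicate 1 of both groups HBEGF, EREG and NRG1 were lower than in all other libraries, and EGFR was higher. The mean over the 4 libraries of replicates 2 and 3 exceeded the mean of the replicate 1 libraries 2.38-fold for HBEGF (36.5 against 15.4 CPM), 2.11-fold for EREG (61.8 against 29.2 CPM) and 2.00-fold for NRG1 (39.1 against 19.6 CPM). Allowing for the group, the log2 difference of replicate 1 was -1.24 for HBEGF (SE 0.11, edgeR adjusted p = 1.02e-08), -1.08 for EREG (SE 0.10) and -0.98 for NRG1 (SE 0.11, edgeR adjusted p = 4.73e-07). EGFR was higher by 0.41 (SE 0.07, edgeR adjusted p = 0.000102). TGFA at -0.15 (95% interval -0.75 to 0.44), ERBB2 at 0.09 and ERBB3 at 0.31 did not pass. Both replicate 1 libraries lay below the other 4 for 20.4% of all tested genes and above them for 19.2%. Of the 10 members 1 passed as higher and 3 as lower, against 11.6% and 12% of all tested genes. These counts were the same by DESeq2, with another size factor, without the low-count filter and with each of the 6 libraries left out. What the replicate numbers mark is not in the labels, so a cause was not tested.

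Set per length, the summed level of the 6 ligands was 11.9 and 13.1 CPM per kilobase in the replicate 1 libraries with TIM-1 and the empty vector, and between 25.4 and 29.1 in the other 4. The summed level of the 4 receptors was 19.2 and 19.1 in replicate 1 and between 14.9 and 16.1 in the others. Ligand transcripts therefore stood at 0.62 and 0.68 times the receptor transcripts in replicate 1, and at 1.62 to 1.87 times in replicates 2 and 3. Within each replicate number the ratio was lower with TIM-1 than with the empty vector, a difference that was not tested.

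The shares of the receptors overlapped between the groups. EGFR made up 66.6 ± 1.67% of the summed per-length receptor level with TIM-1 and 64.4 ± 4.19% with the empty vector (SD, n = 3 each). ERBB2 made up 30.0 ± 1.24% and 32.7 ± 4.57%, and ERBB3 3.41 ± 0.47% and 2.88 ± 0.39%. By replicate number, EGFR averaged 68.6% in replicate 1 and 63.9% in replicates 2 and 3, and ERBB2 28.2% and 32.9%. Among the ligands the share of NRG1 was 14.4%, 15.4% and 15.6% with TIM-1, against 13.3%, 10.4% and 10.2% with the empty vector. These groups did not overlap, replicate 1 included, whereas the CPM values of NRG1 did. The exact two-sided permutation p was 0.10, the smallest that 3 libraries against 3 allow, and 0.56 after Benjamini-Hochberg adjustment over the 7 shares tested. In replicate 1 the NRG1 CPM was nearly equal between the groups, while the summed ligand level was 11.9 CPM per kilobase with TIM-1 and 13.1 with the empty vector. A share also rises when the other ligands are lower. TGFA made up 3.96 ± 0.73% with TIM-1 and 2.20 ± 1.56% with the empty vector (exact permutation p = 0.30), with overlap. EREG (39.4 ± 3.03% and 41.1 ± 2.63%) and HBEGF (41.5 ± 2.84% and 45.2 ± 5.43%) overlapped too. For EREG this held only with the length correction: without it the shares were 41.3%, 44.2% and 39.0% with TIM-1, against 45.8%, 47.9% and 44.4%, which do not overlap (difference -4.52 percentage points, exact permutation p = 0.10).

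**Figure D3:**
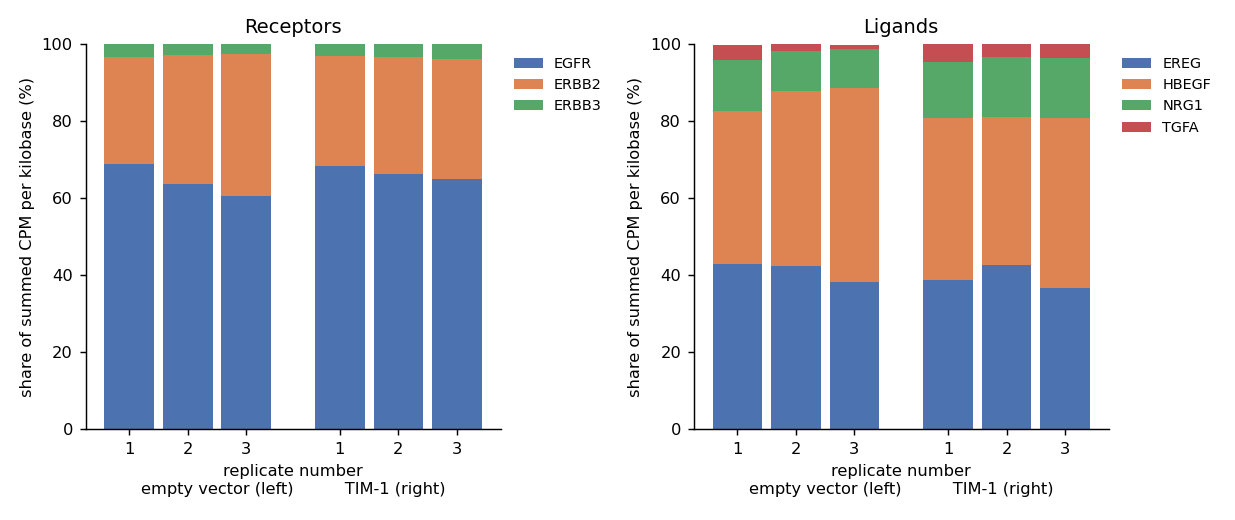
Share of each receptor in the summed CPM per kilobase of the 4 receptors (left) and of each ligand in that of the 6 ligands (right), one bar per library, drawn without ERBB4, AREG and BTC, which reach at most 0.27%. NRG1 takes 14.4% to 15.6% in the TIM-1 libraries and 10.2% to 13.3% in the empty vector libraries.

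Other genes of the pathway were read from 6 lists with 99 genes, of which 86 were tested. Without pairs 0 of the 86 passed in edgeR, with 7 at an unadjusted p under 0.05, and DESeq2 called DUSP4. With pairs 6 rose and 2 fell, which is 9.30% called against 5.01% of all tested genes. The median log2 fold change of the 86 with pairs was 0.06, beside 0.00 over all tested genes. Values of these lists are from the paired fit.

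Of 5 other ligand genes only NRG2, a neuregulin that binds ERBB3 and ERBB4, was tested, and it rose. NRG2 stood at 13.4, 13.8 and 12.5 CPM with TIM-1, against 10.3, 9.21 and 9.11 CPM with the empty vector, with no overlap (log2 fold change 0.47, edgeR adjusted p = 0.0235). Unlike NRG1, it did not differ detectably in replicate 1 (0.09, edgeR adjusted p = 0.675). The call of NRG2 was lost when the replicate 2 pair was left out (edgeR adjusted p = 0.324), without the replicate 3 pair (0.0699) and in the blocked fit of DESeq2 (0.354). EGF, EPGN, NRG3 and NRG4 were too low to be tested.

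Of 14 genes of ligand release 12 were tested, 1 rose and 0 fell, with a median of 0.12. That is 8.33% called, against 5.01% of all tested genes. ADAM12, a metalloprotease able to shed HBEGF, rose (log2 fold change 0.46, edgeR adjusted p = 4.47e-05) from 59.6, 42.2 and 40.2 CPM with the empty vector to 79.0, 58.4 and 57.3 CPM with TIM-1. The ranges overlapped because ADAM12 was also higher in replicate 1, by 0.49 (edgeR adjusted p = 4.95e-05). ADAM17, the main sheddase of TGFA, AREG and EREG, did not pass.

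Of 24 adaptor and effector genes 18 were tested, 1 rose and 0 fell, with a median of 0.06. The share called, 5.56%, was near the 5.01% of all tested genes. GAB1, a docking protein that links EGFR to PI3 kinase and SHP2, went from 6.77, 5.26 and 4.10 CPM with the empty vector to 11.8, 8.85 and 6.80 CPM with TIM-1 (log2 fold change 0.76, edgeR adjusted p = 0.00203). The lowest TIM-1 value barely exceeded the highest empty vector value, and GAB1 too was higher in replicate 1 (0.57, edgeR adjusted p = 0.0182). By DESeq2 with the block its adjusted p was 0.106. Of 19 genes that restrain the receptors 18 were tested and 0 passed in edgeR, with 3 at an unadjusted p under 0.05 where 18.3% of all tested genes had one, a median of 0.09 and 0 calls by DESeq2 with the block. ERRFI1, a feedback inhibitor that binds the EGFR kinase, was the most abundant of them at 1215 ± 76.0 and 1115 ± 65.7 CPM (SD, n = 3 each). Its log2 fold change was 0.12 (edgeR adjusted p = 0.246). NEDD4, a ubiquitin ligase, stood at 0.04. Of 20 trafficking genes 1 rose and 0 fell, with a median of 0.06. Their share called was 5%, beside 5.01% of all tested genes. RAB11A, a GTPase of recycling endosomes, rose by 0.20 (edgeR adjusted p = 0.0463) and was lost without each of the 3 pairs, with edgeR adjusted p from 0.0750 to 0.387.

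Of 17 genes that respond to ERK signalling 2 rose and 2 fell with TIM-1, with a median of -0.003. That is 23.5% called, against 5.01% of all tested genes. DUSP4, a phosphatase that switches off ERK, stood at 73.5, 59.8 and 61.6 CPM with TIM-1, against 44.6, 30.7 and 38.5 CPM with the empty vector (log2 fold change 0.78, edgeR adjusted p = 4.90e-10). The groups did not overlap, and DUSP4 passed without each pair in turn and by DESeq2 in both designs. IER3, an early response gene, rose by 0.33, a call that needed the replicate 3 pair (edgeR adjusted p = 0.0728 without it) and failed by DESeq2 with the block (0.0986). MYC fell by 0.35 (edgeR adjusted p = 0.000105). CCND1, the cyclin D1 gene, named here after its values were seen, had a log2 fold change of -0.19 (edgeR adjusted p = 0.0442). CCND1 was lost without each of the 3 pairs.

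The same ERK list moved more with the replicate number: in replicate 1, 2 of the 17 genes were higher and 7 lower, a share of 52.9% against 23.6% of all tested genes, with a median of -0.12 beside -0.01. Named after their values were seen, FOS (-1.82), DUSP6 (-1.65), EGR1 (-1.18), MYC (-0.93), DUSP5 (-0.69), SPRY4 (-0.64) and FOSL1 (-0.19) were lower in replicate 1 on the log2 scale. SPRY1 (1.91) and DUSP4 (0.32) were higher. FOS stood at 86.4 and 85.1 CPM in the replicate 1 libraries with TIM-1 and the empty vector, and between 288 and 325 CPM in the other 4. HBEGF, EREG and NRG1 were low in the same libraries, and the part of either in the other was not tested.

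**Figure D4:**
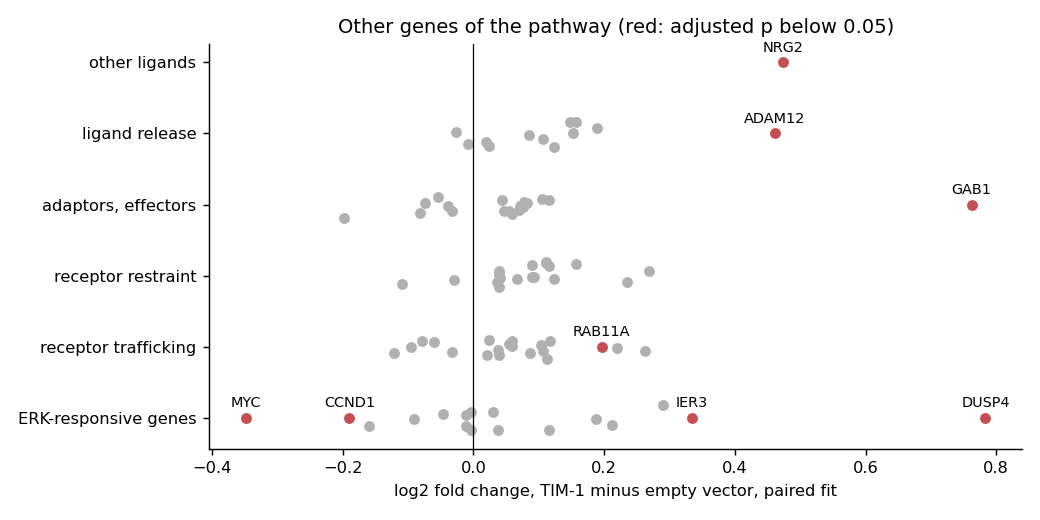
Log2 fold change, TIM-1 minus empty vector in the paired fit, of each tested gene of 6 pathway lists (points, spread vertically for visibility). The 8 genes with an adjusted p under 0.05 are red and named, with DUSP4 at 0.78 and MYC at -0.35 at the ends of the ERK list.

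For the 2 members with the widest range over the libraries, HBEGF (1.44 on the log2 CPM scale) and TGFA (1.43), the genes with the most similar profile were sought among 11479 other protein-coding genes of at least 1 CPM. METTL1 differed from HBEGF by 0.04 and NFKB2 by 0.06, as the mean absolute difference of centred log2 CPM over the 6 libraries, where the median gene differed by 0.54. METTL1 stood at 11.6 and 12.4 CPM in the replicate 1 libraries and between 25.6 and 31.7 CPM in the others. NFKB2 stood at 67.8 and 73.7 CPM and between 143 and 215 CPM. PSMB8 differed from TGFA by 0.11 and HTR1D by 0.13, where the median gene differed by 0.43. PSMB8 stood at 5.04, 7.98 and 8.58 CPM with TIM-1, against 3.76, 4.39 and 3.38 CPM with the empty vector. These genes were picked for their likeness, so it is no test.

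Markers of leukocytes and endothelium were at or near 0, and those of fibroblasts were low. Of 6 leukocyte markers 0 were abundant enough to be tested, PTPRC, CD3E, LYZ and FCGR3A were at 0, and their summed level was at most 0.19 CPM in any library. Of 5 endothelial markers 0 were tested, CDH5 and EMCN were at 0, and the sum was at most 0.28 CPM. Of 6 fibroblast markers 2 were tested and DCN was at 0. Their summed level ran from 9.28 to 15.9 CPM with TIM-1 and from 5.67 to 9.52 CPM with the empty vector. COL1A1, also made by many cancer cell lines, rose with pairs (log2 fold change 0.90, edgeR adjusted p = 0.000265). The summed level of the 16 urothelial markers ran from 333 to 446 CPM with TIM-1 and from 366 to 568 CPM with the empty vector. With pairs KRT18 fell by 0.24, GATA3 fell by 1.25 and PPARG rose by 0.62. Without the replicate 2 and the replicate 3 pair the edgeR adjusted p was 0.0632 and 0.147 for KRT18, 0.319 and 0.382 for GATA3 and 0.150 and 0.0593 for PPARG, so all 3 calls were lost. PPARG was also lost without the replicate 1 pair (0.0778) and in the blocked fit of DESeq2 (0.329), and KRT18 (0.0599) and GATA3 (0.0608) with a block separating just replicate 1. The part of these genes in the ligand differences was not tested.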

How the data were processed

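RNA sequencing counts of 6 UMUC3 libraries were used, 3 per group. The authors deposited a single table of raw counts, given per Ensembl gene and not normalized. Per the submitters' processing notes, HISAT2 2.0.5, featureCounts 1.5.0-p3, DESeq2 1.16.1 and the hg38 build were used. No source used here gives the annotation release, the strandedness or how multi-mapping reads were treated. Groups came from the treatment label and replicate numbers from the titles.

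The 10 members and the pathway and marker lists were chosen with earlier results of these data known. Symbols were found for 60593 of 60605 identifiers. Positions and exon lengths came from GENCODE on GRCh38, the assembly of hg38, and promoters from RefSeq. Windows were kept for 8 of the 10 members, not for ERBB3 or NRG1. The search left out chromosome 8, where NRG1 lies, so whether RefSeq holds an NRG1 window was not read.

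Genes were kept by filterByExpr (minimum count 10), which left 14479. Groups were compared in edgeR 4.0.16 and R 4.3.3 by its quasi-likelihood F test (TMM factors, robust fit), without a replicate term, on 4 residual degrees of freedom. Two-sided p-values were Benjamini-Hochberg adjusted across the whole tested table, and calls needed an adjusted p under 0.05. Intervals are 95% and were derived from the F statistic. The p-values and intervals of edgeR also used prior degrees of freedom shared across genes, added to the residual ones. They therefore do not rest on a gene's own spread between libraries alone. CPM used TMM-scaled library sizes, and CPM per kilobase the union of annotated exons. Where a library had 0 counts the upper limit was set at 3 counts, for counting error only. In each list, the genes named were the called ones of smallest p, at most 3, or the 2 of highest CPM if 0 were called. Similar profiles used log2 of CPM plus 0.5.

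The paired fit took the replicate number as a block, on 2 residual degrees of freedom, with the shared prior ones added likewise. Deviations from the group means, over genes, correlated at 0.59, 0.29 and 0.32 between same-numbered libraries 1, 2 and 3, above the limit of 0.1 for taking them as pairs. The TIM-1 library 3 correlated at 0.31 with control library 2, so the data set replicate 1 apart and do not tell replicates 2 and 3 apart. Within-group library pairs differed by more than sampling noise (chi-square per degree of freedom of at least 4.18). The fits were tested on simulated data drawn from the model with the replicate block, which cannot show which fit suits these data. Alternatives were DESeq2 1.42.0, other size factors, no low-count filter, a block of replicate 1 only and each library or pair left out. The block of replicate 1 only, the fit without both replicate 1 libraries, the test of the difference between replicates and the replicate 1 comparison with a library left out were added after the data were seen.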

Additional observations from a re-analysis of the deposited data

How the results depend on the processing

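Without pairs 2 genes of the whole table were higher and 0 lower with TIM-1. The replicate block gave 466 and 259, DESeq2 24 and 1, DESeq2 with the replicate block 131 and 78, no low-count filter 60 and 12, a replicate block of replicate 1 only 348 and 162, and leaving out both replicate 1 libraries 175 and 82. With each library left out, 1 to 8 were higher and 0 to 1 lower, and with the block and each pair left out 440, 152 and 339 higher and 398, 57 and 134 lower (pairs 1, 2 and 3). Among the members 0 were called without pairs. The replicate block called 2 higher, and leaving out both replicate 1 libraries called 2 higher. With the block and a pair left out, 0 to 2 members were higher and 0 to 1 lower. Among the pathway genes 0 were called without pairs. The replicate block called 6 higher and 2 lower, DESeq2 1 higher, DESeq2 with the block 2 higher and 1 lower, no low-count filter 1 higher, a block of replicate 1 only 5 higher and 1 lower, and leaving out both replicate 1 libraries 2 higher and 1 lower. With each library left out 0 to 1 were higher, without empty vector replicate 1 in the single case, and with the block and pairs 1, 2 and 3 left out in turn 6, 4 and 3 were higher and 1 lower.

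Signs changed for values near 0 only when libraries were left out. The TIM-1 log2 fold change ran from -0.055 to 0.25 for EGFR, from -0.45 to 0.11 for EREG and from -0.072 to 0.155 for NEDD4, which was -0.024 with the block and without pair 3. The replicate 1 difference ran from -0.0081 to 0.20 for ERBB2, from -0.010 to 0.636 for ERBB3 and from -0.67 to 0.46 for TGFA. Without length correction the TIM-1 minus empty vector difference in share was 6.75 percentage points for NRG1, against 3.88, and -4.52 for EREG, against -1.77, because dividing by length weighs the long NRG1 gene less. The cause of the other changes was not tested. TGFA and ERBB3 had the fewest counts of the tested members, at most 99 in a library, and the widest intervals in the paired fit. In the unpaired fit the intervals of HBEGF, EREG and NRG1 were wider than theirs.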
